A study of Mus musculus with 7 samples.

Results

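Chromatin accessibility of the genes that encode Rab GTPases was examined in airway macrophages (AMs) of *Scnn1b*-Tg and wild-type (WT) mice at baseline. Accessibility was measured by ATACseq, an assay that tags open DNA with a transposase, and the accessible regions are called peaks. A region counted as a Rab region when the gene symbol that the authors assigned to it was Rab followed by digits and an optional letter or suffix. This rule found 257 of 90376 regions and 56 of 17797 gene symbols, and it used no measured value. The assigned gene is the one with the nearest annotated transcript start, which need not be the gene that a region acts on. *Rab27b*, *Rab39b* and *Rab9b* had no region in the table.

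The comparison was between 3 WT and 4 *Scnn1b*-Tg libraries of AMs sorted from lung as CD45+ Siglec-F+ CD11c+ cells of female C57BL/6 mice aged 6 weeks. The transgene overexpresses *Scnn1b*, a subunit of the epithelial sodium channel, under the club cell secretory protein promoter, which is active in airway epithelium, so that AMs are exposed to mucus-obstructed airways without being the cells the promoter targets. WT littermates served as controls. No treatment was given.

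Rab proteins are small GTPases that act as switches of membrane traffic. Exchange factors load them with GTP and GTPase-activating proteins return them to the GDP form, while a prenyl tail anchors the active form to a membrane, where it recruits effectors such as tethers and motor proteins. In macrophages an engulfed particle passes from a Rab5-bearing early phagosome to a Rab7-bearing late phagosome that fuses with lysosomes, and other members return receptors to the surface or deliver cytokines and granule contents.

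Reads in regions ranged from 20971521 to 56121809 per library. WT replicate 3 and *Scnn1b*-Tg replicate 4 stood apart from the other libraries on the first principal component of all regions (43.6% of the variance), with scores of 109.6 and 101.0 against -90.4 to 8.1. Replicate numbers are those of the table's columns, which no label ties to a sample number or batch. Regions at the starts of 20 of 20 AM marker genes were present. Among marker genes of other cells, a start region was found for 8 of 10 of neutrophils, 8 of 10 of monocytes and recruited macrophages, 6 of 10 of lung epithelium, 6 of 8 of dendritic cells, 2 of 9 of T and B cells and 1 of 6 of eosinophils. *Ly6g* and *Retnlg* of neutrophils, *Sftpc* of epithelium and *Cd3e* of T cells had none. The summed normalized count at the monocyte starts was 3401 to 3814 in WT against 3133 to 3322 in *Scnn1b*-Tg libraries, so that the genotypes did not overlap. Most of this sum was *Vcan*, with 2510, 2955 and 2618 in WT against 2446, 2422, 2225 and 2351 in *Scnn1b*-Tg libraries. At the other monocyte starts the log2 fold change ran from -0.09 at *Cx3cr1* to 0.25 at *Fcnb*. The part of this difference in the results below was not tested. The other lists overlapped between genotypes, the neutrophil list at 2648 to 3374 in WT against 2493 to 3215 in *Scnn1b*-Tg libraries.

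The following stretches of GRCm38 (mm10), read 5′ to 3′, lie in the Rab regions with an unadjusted *P* value under 0.05 in the limma comparison below. At most 2 regions per gene are shown, those of smallest *P* value, so *Rab28* regions 2 and 4 are left out. Capitals mark matches on either strand to the AP-1 string TGAGTCA, the PU.1 string GAGGAAGT, the E-box string CACGTG, the C/EBP string TTGCGCAA and the cAMP response element string TGACGTCA. The first 5 stretches are on the plus strand and lie at chr5:41187426-41187725, chr5:41281105-41281401, chr9:53693750-53694049, chr17:66532471-66532770 and chr10:115328469-115328768. They are the central 300 bases of a region or, for *Rab28* region 5, the whole region of 297 bp. The last is the 250 bases before the RefSeq start of *Rab39* on the minus strand, chr9:53706233-53706482.
Rab28 region 3: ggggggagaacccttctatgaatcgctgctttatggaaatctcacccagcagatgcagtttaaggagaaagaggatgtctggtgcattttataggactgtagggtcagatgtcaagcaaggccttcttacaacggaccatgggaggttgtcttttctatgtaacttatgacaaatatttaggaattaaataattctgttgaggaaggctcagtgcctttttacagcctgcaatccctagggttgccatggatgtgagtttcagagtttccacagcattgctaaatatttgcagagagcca
Rab28 region 5: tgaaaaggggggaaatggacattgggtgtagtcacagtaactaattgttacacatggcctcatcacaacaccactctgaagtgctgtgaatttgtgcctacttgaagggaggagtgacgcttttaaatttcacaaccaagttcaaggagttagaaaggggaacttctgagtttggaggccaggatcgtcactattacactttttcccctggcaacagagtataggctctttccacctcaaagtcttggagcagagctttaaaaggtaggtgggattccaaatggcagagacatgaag
Rab39 region 1: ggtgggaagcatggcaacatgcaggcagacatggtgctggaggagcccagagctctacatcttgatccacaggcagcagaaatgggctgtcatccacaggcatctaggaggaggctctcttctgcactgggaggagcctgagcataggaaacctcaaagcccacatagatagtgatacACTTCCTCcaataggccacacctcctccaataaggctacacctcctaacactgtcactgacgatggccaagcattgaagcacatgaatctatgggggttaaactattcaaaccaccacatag
Rab12 region 7: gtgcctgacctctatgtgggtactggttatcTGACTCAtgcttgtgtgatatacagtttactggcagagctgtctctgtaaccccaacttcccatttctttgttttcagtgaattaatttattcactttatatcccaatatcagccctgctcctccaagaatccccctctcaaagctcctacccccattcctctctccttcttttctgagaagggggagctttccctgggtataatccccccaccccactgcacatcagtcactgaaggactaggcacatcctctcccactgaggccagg
Rab21 region 6: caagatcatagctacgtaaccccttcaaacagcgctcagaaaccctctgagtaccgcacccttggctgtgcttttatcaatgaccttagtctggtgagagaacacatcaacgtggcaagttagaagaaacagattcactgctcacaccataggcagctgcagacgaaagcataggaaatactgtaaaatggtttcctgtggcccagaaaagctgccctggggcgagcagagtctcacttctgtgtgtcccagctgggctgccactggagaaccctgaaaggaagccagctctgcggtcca
Rab39 promoter: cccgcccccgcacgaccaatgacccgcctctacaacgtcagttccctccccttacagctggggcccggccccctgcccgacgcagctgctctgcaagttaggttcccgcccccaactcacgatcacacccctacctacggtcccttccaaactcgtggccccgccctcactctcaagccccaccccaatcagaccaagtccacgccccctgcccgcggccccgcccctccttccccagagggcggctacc

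The *Rab12* stretch held 1 AP-1 string (TGACTCA, at base 32) and the *Rab39* region 1 stretch held 1 PU.1 string (ACTTCCTC, the other strand of GAGGAAGT, at base 179). None of the strings was present in the other 4 stretches. Across Rab regions these strings occurred about as often as elsewhere. The central 300 bases held an AP-1 string in 23 of 257 Rab regions (8.95%) and in 8.91% of all regions. A PU.1 string was in 25 Rab regions (9.73%) against 8.66% of all, and an E-box in 15 (5.84%) against 5.57%. The C/EBP string was in 1 Rab region (0.389%) against 0.135% of all, and the cAMP response element string in 0 against 0.668%. Away from starts, 24 of 187 Rab regions (12.8%) held the PU.1 string, as did 9.83% of all regions over 1 kb from a start. The median GC content was 48.2% for Rab regions and 48.2% for all regions. These shares are descriptions of letters in a window and carry no test.

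By position, a larger share of Rab regions than of all regions lay at promoters, a difference that was not tested. Promoters held 95 of them (37.0%, against 31.1% of all regions), introns 93 (36.2%, against 33.3%) and distal intergenic sequence 50 (19.5%, against 26.8%). A Rab gene had a median of 3 regions, 14 genes had 1, and *Rab8b* had the most with 17. *Rab7* and *Rab37* followed with 14 each, and *Rab2a* and *Rab31* with 13 each. The median width was 701 bp and the median level 169.6 normalized reads per region, against 669 bp and 120.6 over all regions. Normalized reads are read counts per region that the authors scaled by 1 factor per library.

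In all, 51 Rab genes had a region within 1 kb of a start, and levels there spanned a 59.6-fold range per kb of region. The highest mean level over the 7 libraries was at *Rab40c*, whose product joins a ubiquitin ligase, with 4220 normalized reads per kb. It was followed by *Rab11b* of recycling endosomes at 3429, *Rab8a* of exocytosis at 3083 and *Rab5b* of early endosomes at 2876. The lowest levels were at *Rab33a* of the Golgi with 70.8 and *Rab15* of recycling endosomes with 102, both better known from neurons, followed by *Rab36* with 110 and *Rab25*, an epithelial member, with 117. *Rab17*, *Rab20*, *Rab30*, *Rab35* and *Rab3c* had no region within 1 kb of a start under their own symbol. The annotated starts of *Rab20*, *Rab30* and *Rab35* were covered by regions that the authors' annotation gave to E230013L22Rik, 4632427E13Rik and 1110006O24Rik, which were not counted as Rab regions. Regions over annotated starts of *Rab22a* and *Rab2b* were likewise given to Ppp4r1l-ps and Tox4. The regions counted for these genes lay 635 and 933 bp from a start.

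Between the genotypes, no Rab region passed the test. Accessibility was compared with limma on log2(normalized count + 1), with adjustment over all 90376 regions and a threshold of adj. *P* value under 0.05. Of 257 Rab regions 0 passed, and the background was 0.00111% of all regions, which is 1 region. The smallest adj. *P* value among Rab regions was 0.999994. At an unadjusted *P* value under 0.05 there were 8 Rab regions (3.11%, against a background of 2.01%), of which 2 were higher and 6 lower in *Scnn1b*-Tg AMs. *Rab28* contributed 4 of the 8, and the other 249 regions held 4 (1.61%). The edgeR quasi-likelihood test, the edgeR likelihood-ratio test and DESeq2 on the recovered reads passed 0 Rab regions each, with 9 at an unadjusted *P* value under 0.05 in each. Over all 90376 regions these tests had 1768, 2026 and 1699 at that threshold, and limma 1813. The count of 8 was 3 without WT replicate 2 and 13 without the pair of libraries that stood apart, in which fit 0 passed. Over all regions the same 2 fits had 1310 and 2686. With 1 surrogate variable as a further term, 1 Rab region passed (*Rab28* region 3) and 15 had an unadjusted *P* value under 0.05. In that fit 72 of all 90376 regions passed and 4466 had an unadjusted *P* value under 0.05.

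Higher and lower regions were near equal in number over the gene family. Of 257 regions 128 were higher (49.8%) and the median log2 fold change was -0.00013, against 47.8% and -0.0081 over all regions. In 217 regions the log2 fold change was within 0.3 of 0, and in 215 (83.7%, against 79.3% of all) its 95% interval lay inside 1 log2 unit on either side of 0. All libraries of one genotype lay above all of the other in 13 regions. In 8 of these *Scnn1b*-Tg was higher (background 1.92%) and in 5 lower (background 1.31%). Rescaling by quantiles gave 132 higher regions, and the median then took the opposite sign at 0.0066.

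**Figure D1:**
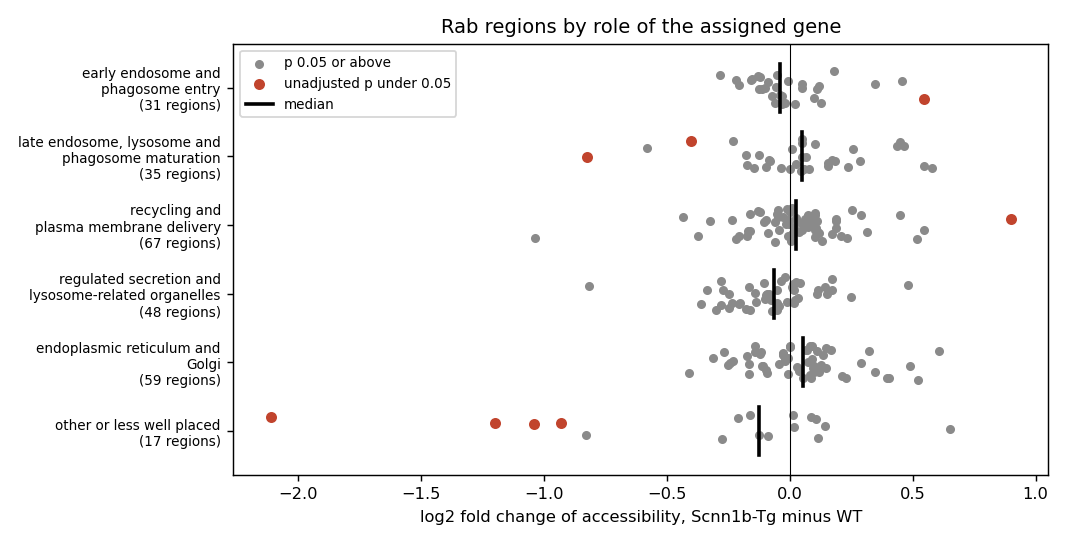
Each point is 1 of the 257 Rab regions, placed on the horizontal axis by its log2 fold change (*Scnn1b*-Tg minus WT) and on the vertical axis by the role of its assigned gene, with bars for the medians. Medians lay between -0.12 and 0.05, and 4 of the 8 regions with an unadjusted *P* value under 0.05, in red, belonged to *Rab28* in the lowest row.

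The lowest values in *Scnn1b*-Tg AMs were at *Rab28*, which encodes an atypical, farnesylated member known from cilia and, in humans, from a retinal dystrophy. Its 8 regions on chromosome 5 are numbered by position. All 8 had a lower mean in *Scnn1b*-Tg libraries, and 0 passed the test. The 6 regions far from the gene were the 6 regions found in the 1979 kb between *Rab28* and the next coding gene, *Hs3st1*, so their assignment to *Rab28* rests on distance alone. Their distances below are to the assigned transcript start, which lies at region 7 (chr5:41627233-41628188). The main start region, region 8 (chr5:41706989-41708833), lies farther from them.

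*Rab28* region 5 (chr5:41281105-41281401), 346 kb from the assigned start and over the single exon of the transcript 4930519E07Rik, held 38.3, 24.9 and 18.3 normalized reads in WT libraries and 9.74, 9.97, 4.74 and 1.23 in *Scnn1b*-Tg libraries. The genotypes did not overlap, and *Scnn1b*-Tg replicate 4, the deepest library, was lowest. The log2 fold change was -2.11 (95% interval -3.45 to -0.77, unadjusted *P* value 0.0050). The reads behind these values were few, 45, 21 and 16 in WT against 8, 11, 3 and 2 in *Scnn1b*-Tg libraries.

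*Rab28* region 3 (chr5:41187125-41188026), intergenic and 439 kb from the assigned start, was the strongest of the distant cluster in level. It held 368, 326 and 169 normalized reads in WT against 220, 88.8, 117 and 84.7 in *Scnn1b*-Tg libraries. WT replicate 3 lay between *Scnn1b*-Tg replicates 1 and 3, so the genotypes overlapped. The log2 fold change was -1.20 (95% interval -1.96 to -0.44, unadjusted *P* value 0.0051). With 1 surrogate variable as a further term it was -1.21 with an adj. *P* value of 0.00606, the 1 Rab region that passed in any of the fits. The range of its adj. *P* value over the other fits reached 0.999999.

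Both neighbours of region 3 separated the genotypes. *Rab28* region 4 (chr5:41192786-41193524) held 65.5, 80.6 and 66.2 normalized reads in WT against 58.4, 21.8, 31.6 and 31.9 in *Scnn1b*-Tg libraries, a log2 fold change of -1.04 (SE 0.32). Region 2 (chr5:41186458-41186942) held 53.6, 75.9 and 40.0 in WT against 21.9, 36.3, 30.0 and 26.4 in *Scnn1b*-Tg libraries, a log2 fold change of -0.93 (SE 0.30). In both, every WT library was above every *Scnn1b*-Tg library. Values nearer the gene were closer to 0, and this difference between regions was not tested. Region 6, 177 kb from the assigned start, had a log2 fold change of -0.28, and the start regions 7 and 8 had -0.09 and -0.12, with 95% intervals that included 0. The 95% interval of region 1 (chr5:41143146-41143316), the farthest from the gene, included 0 as well. The main start region, region 8, held 1161, 1257 and 1684 normalized reads in WT against 1018, 1258, 1088 and 1685 in *Scnn1b*-Tg libraries, with WT replicate 3 and *Scnn1b*-Tg replicate 4 highest in their genotypes.

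**Figure D2:**
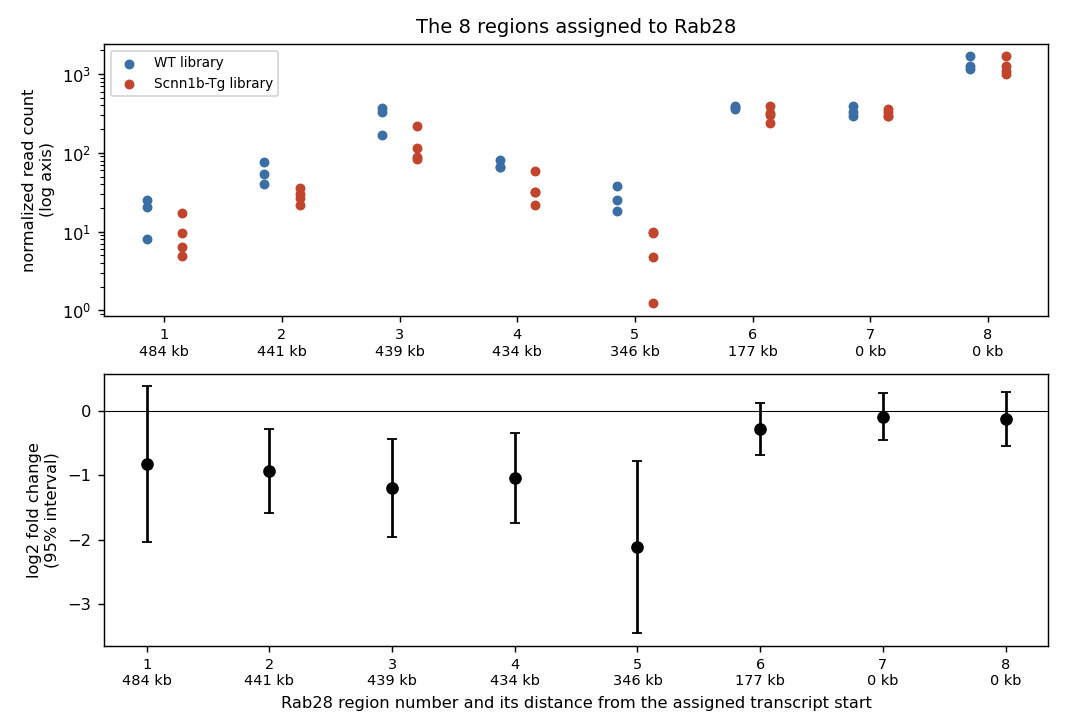
The upper panel shows the normalized read count of every library (log axis) at the 8 *Rab28* regions, labelled by number and distance from the assigned start in kb, and the lower panel the log2 fold change with its 95% interval. Regions 2 to 5, which lie 346 to 441 kb away, had fold changes from -2.11 to -0.93, and the intervals of regions 1, 6, 7 and 8 included 0.

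Among the late endosome, lysosome and phagosome maturation genes (35 regions, 8 genes), 23 regions were higher in *Scnn1b*-Tg AMs. *Rab7* held 10 of these (of 14 regions) and *Rab7b* 8 (of 10), and by gene sum 4 genes were higher and 4 lower. In the group 2 regions had an unadjusted *P* value under 0.05. Both of these 2 were lower and belonged to *Rab39*, whose product is found on phagosomes and binds caspase-1 in human monocytic cells. At the *Rab39* start (region 3, chr9:53705531-53706980), which holds the promoter sequence printed above, WT libraries had 1174, 1527 and 1534 normalized reads and *Scnn1b*-Tg libraries 919, 1075, 1083 and 1178. WT replicate 1 and *Scnn1b*-Tg replicate 4 were nearly equal and were the only overlap. The log2 fold change was -0.40 (95% interval -0.72 to -0.08, unadjusted *P* value 0.018). No other Rab region within 1 kb of a start had an unadjusted *P* value under 0.05.

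The only intron of *Rab39* held a further region, region 1 (chr9:53693631-53694168), 12.1 kb from the start. WT libraries had 54.4, 71.2 and 52.5 normalized reads and *Scnn1b*-Tg libraries 25.6, 27.2, 42.7 and 38.7, with no overlap. The log2 fold change was -0.83 (95% interval -1.43 to -0.22, unadjusted *P* value 0.012). Region 2 of the same intron had a log2 fold change of -0.18 and overlapping genotypes. Over the alternatives tried, the adj. *P* value of the *Rab39* start ranged from 0.119 to 0.999999.

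The best known members of this route did not pass. The start of *Rab7*, the Rab of late endosomes and lysosomal fusion, had 654, 777 and 828 normalized reads in WT against 726, 771, 830 and 905 in *Scnn1b*-Tg libraries (log2 fold change 0.10, 95% interval -0.22 to 0.43). An upstream *Rab7* region, 8.15 kb before the start, had 246, 264 and 272 in WT against 276, 301, 294 and 290 in *Scnn1b*-Tg libraries, every *Scnn1b*-Tg library being higher by a small margin (log2 fold change 0.16). It was the 1 region of the group that was higher without overlap, and the rules for named regions given below did not select it. At *Rab7b*, which limits Toll-like receptor 4 signalling in macrophages, the start gave 0.08 and a region 8.24 kb upstream 0.45, with overlap. *Rab7* region 1, in the gene, gave 0.58, also with overlap. *Rab9*, which returns receptors from late endosomes to the Golgi, gave 0.01, and *Rab34*, a Golgi member that positions lysosomes, gave -0.09.

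Early endosome and phagosome entry genes (31 regions, 8 genes) had 11 higher regions and a median log2 fold change of -0.04. The starts of the Rab5 genes, which control fusion of early endosomes and new phagosomes, were among the most accessible of the family. *Rab5a* had 2690 to 4088 normalized reads in WT against 2665 to 3685 in *Scnn1b*-Tg libraries, *Rab5b* 3674 to 4111 and 3603 to 3968, and *Rab5c* 1597 to 2066 and 1726 to 2006. Their log2 fold changes were -0.06, -0.02 and 0.02, and the 95% intervals of all 3 lay within 0.39 of 0. *Rab31*, which acts between the Golgi and endosomes, had a start at -0.16. For *Rab22a* of early endosomes, the region counted lay 635 bp from a start and had 0.05, with 53.8 to 84.3 normalized reads per library. The region over an annotated *Rab22a* start was assigned to Ppp4r1l-ps and was not counted.

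The 1 region of this group with an unadjusted *P* value under 0.05 was *Rab21* region 6 (chr10:115328252-115328984), 12.7 kb upstream of the start of a gene that directs integrins into early endosomes. WT libraries had 59.5, 68.8 and 75.4 normalized reads and *Scnn1b*-Tg libraries 123, 76.2, 103 and 100.1. *Scnn1b*-Tg replicate 2 was just above WT replicate 3, so the genotypes did not overlap by a narrow margin. The log2 fold change was 0.55 (SE 0.22, unadjusted *P* value 0.031). The *Rab21* start gave -0.06.

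Recycling and plasma membrane delivery genes (67 regions, 14 genes) had 38 higher regions, a median of 0.03 and 1 region with an unadjusted *P* value under 0.05. This was *Rab12* region 7 (chr17:66532410-66532830), 12.7 kb upstream of a gene whose product sends the transferrin receptor to lysosomes. It held 11.9, 11.9 and 12.6 normalized reads in WT against 18.3, 19.9, 36.4 and 22.7 in *Scnn1b*-Tg libraries. The genotypes did not overlap, the log2 fold change was 0.90 (95% interval 0.10 to 1.7, unadjusted *P* value 0.030), and the values rest on 10 to 37 reads per library. *Rab11b* region 1, in the 3′ UTR, held 38.8 to 44.2 in WT against 47.5 to 73.4 in *Scnn1b*-Tg libraries (0.52), and *Rab15* region 1 held 18.97 to 28.1 and 32.9 to 39.9 (0.55), neither with overlap.

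**Figure D3:**
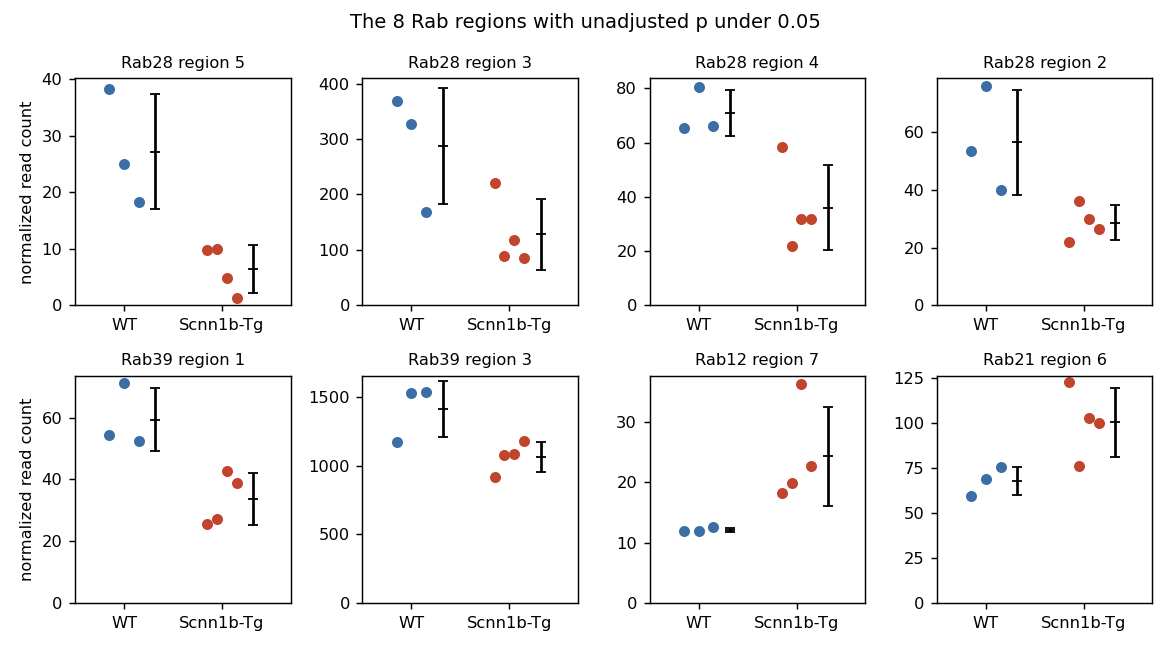
Normalized read counts of the single libraries (points), with the mean and SD beside them (bars), are plotted for the 8 Rab regions with an unadjusted *P* value under 0.05. Genotypes overlapped at *Rab28* region 3 and *Rab39* region 3 and were apart in the other 6 panels, and counts were below 100 in both genotypes at 5 of the 8.

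None of the starts of this group passed. A further region of the group within 1 kb of a start, with a mean below 20 normalized reads, had a log2 fold change of -1.04. This was the lowest of the 70 Rab regions within 1 kb of a start, and its unadjusted *P* value was not under 0.05. *Rab11a* and *Rab11b* of recycling endosomes gave log2 fold changes of -0.06 and 0.07. *Rab8a* and *Rab8b*, which drive exocytosis and, for *Rab8a*, restrain Toll-like receptor responses in macrophages, gave 0.01 and 0.00. *Rab10*, which carries Toll-like receptor 4 to the surface, gave -0.02, and *Rab14* of the Golgi and endosomes -0.10. *Rab35*, an Arf6-linked recycling Rab, was represented by 1 intronic region at 0.07.

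*Rab8b* had the largest sum of the family. Its 17 regions, 1 at the start and 16 within the gene, summed to 15252, 12852 and 12718 normalized reads in WT against 16088, 13415, 12842 and 12410 in *Scnn1b*-Tg libraries. Its intronic region 4 (chr9:66881828-66882229), 37.5 kb inside the gene, had 3228 normalized reads per kb over all libraries, against 986 at the start. That region had 1555, 1276 and 1068 in WT against 1592, 1297, 1283 and 1014 in *Scnn1b*-Tg libraries, and its log2 fold change was -0.0044 (95% interval -0.39 to 0.38). In both genotypes it was highest in replicate 1 and lowest in the library that stood apart, while the *Rab8b* start was highest in that library.

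Regulated secretion and lysosome-related organelle genes (48 regions, 10 genes) had 17 higher regions, a median of -0.06 and 0 regions with an unadjusted *P* value under 0.05. *Rab37*, a secretory granule Rab, had 12 lower and 2 higher regions, with log2 fold changes from -0.28 to 0.03. Its sum was 5281, 5055 and 4816 normalized reads in WT against 4937, 4764, 3992 and 4818 in *Scnn1b*-Tg libraries. The genotypes overlapped, and *Scnn1b*-Tg replicate 3, the shallowest library, was lowest. *Rab26* region 2, 5.44 kb upstream of another secretory granule gene, had 227, 251 and 219 in WT against 203, 179, 158 and 185 in *Scnn1b*-Tg libraries (log2 fold change -0.36, 95% interval -0.73 to 0.01), with no overlap. The starts of *Rab27a* (0.02), which docks secretory granules and exosomes, *Rab32* (0.01) and *Rab38* (0.12) of lysosome-related organelles and *Rab3d* (-0.10) of granules gave intervals that included 0. Within the genes, *Rab44* region 7 (-0.82) and *Rab38* region 2 (0.48) had larger values with overlapping genotypes. *Rab44* encodes a large Rab of mast cell granules.

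Endoplasmic reticulum and Golgi genes (59 regions, 12 genes) had 32 higher regions, a median of 0.05 and 0 regions with an unadjusted *P* value under 0.05. *Rab1a*, which takes vesicles from the endoplasmic reticulum to the Golgi, had a start at 2228 to 3013 normalized reads in WT against 2337 to 2875 in *Scnn1b*-Tg libraries (log2 fold change -0.01). *Rab2a*, which acts on the same route, had 10 of 13 regions higher, with a start at 0.12. *Rab6a*, of traffic back through the Golgi, had a start at -0.02. The highest value of the group was at *Rab33a* region 6, within the gene, with 36.6, 33.2 and 19.4 in WT against 40.2, 44.4, 68.0 and 31.3 in *Scnn1b*-Tg libraries (0.61, 95% interval -0.12 to 1.33), with overlap.

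Summed over all regions of a gene, 0 of 56 Rab genes passed, against 0.0% of 17797 symbols. At an unadjusted *P* value under 0.05 there were 2 (*Rab39* and *Rab28*), against a background of 1.15%. *Rab39* summed to 1345, 1749 and 1665 normalized reads in WT against 1058, 1182, 1245 and 1304 in *Scnn1b*-Tg libraries, a ratio of 0.755 (log2 fold change -0.40, SE 0.13, unadjusted *P* value 0.012). *Rab28* summed to 2481, 2479.6 and 2672 in WT against 2093, 1956, 1901 and 2472 in *Scnn1b*-Tg libraries, a ratio of 0.827 (log2 fold change -0.28, SE 0.11, unadjusted *P* value 0.028). Neither gene overlapped between genotypes, although *Rab28* in *Scnn1b*-Tg replicate 4 came close to WT replicates 1 and 2. Without WT replicate 2 neither had an unadjusted *P* value under 0.05. For 35 of 56 genes the 95% interval of the sum lay within 0.5 log2 units of 0.

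**Figure D4:**
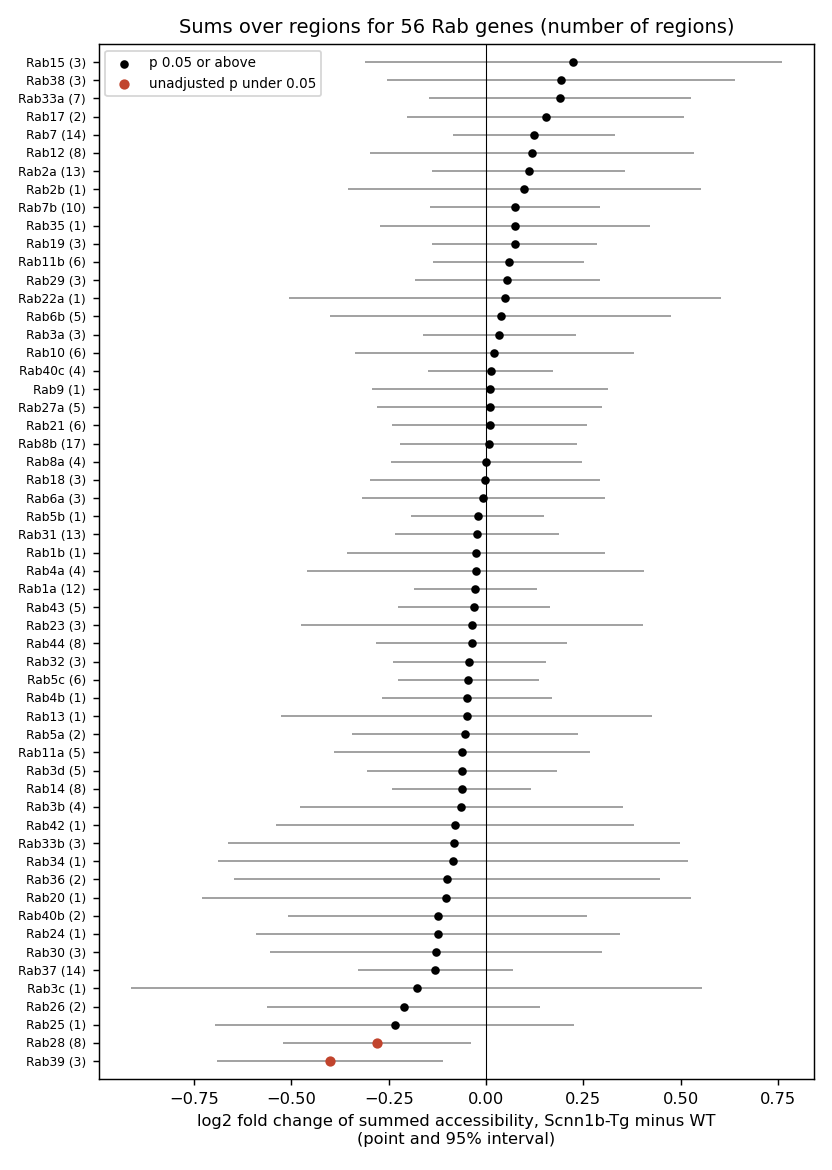
Points give the log2 fold change of the summed accessibility of each of the 56 Rab genes (*Scnn1b*-Tg minus WT, horizontal axis) and lines its 95% interval, with the number of regions in brackets. Values ran from -0.40 at *Rab39* to 0.22 at *Rab15*, and the intervals of *Rab39* and *Rab28*, in red, did not include 0.

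Of the 56 sums 23 were higher in *Scnn1b*-Tg AMs (median log2 fold change -0.03, against -0.01 over all symbols). This count moved with single libraries and was 40 without WT replicate 3 and 17 without WT replicate 1. The same held at starts, where 28 of 70 regions were higher (40.0%, against 40.5% of all start regions) with a range of 16 to 49 when libraries were left out. At Rab starts the median deviation from the mean of the 7 libraries was -0.16, 0.01 and 0.22 log2 units in WT replicates 1 to 3 and -0.14, -0.01, -0.07 and 0.18 in *Scnn1b*-Tg replicates 1 to 4. WT replicate 3 was above the mean at 88.6% of Rab starts and *Scnn1b*-Tg replicate 4 at 81.4%, while WT replicate 1 was above it at 17.1% and *Scnn1b*-Tg replicate 1 at 28.6%. Over all start regions the same libraries were highest and lowest, with medians of 0.21 in WT replicate 3, 0.18 in *Scnn1b*-Tg replicate 4, -0.18 in WT replicate 1 and -0.19 in *Scnn1b*-Tg replicate 1. Libraries of either genotype therefore differed more from each other at Rab starts than the genotype means did, whose median difference was -0.05.

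**Figure D5:**
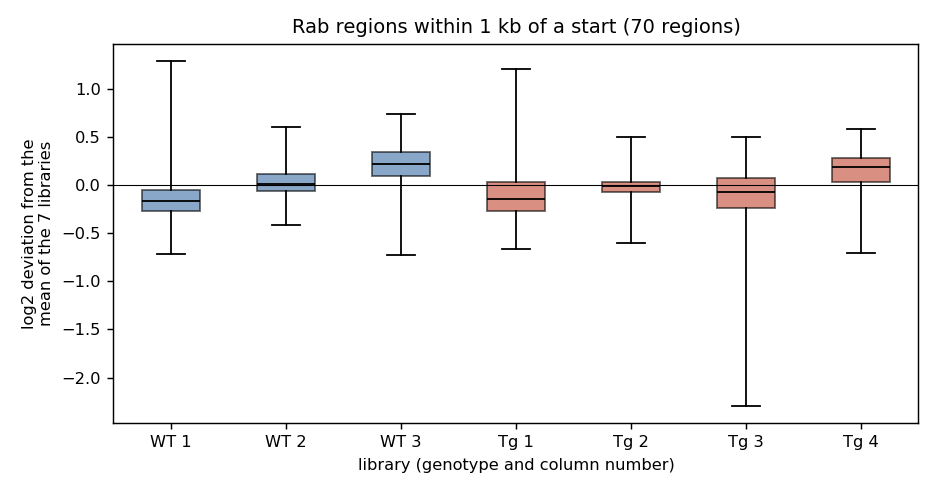
For each library, boxes show the quartiles and median, and whiskers the full range, of the log2 deviation from the mean of the 7 libraries at the 70 Rab regions within 1 kb of a start. Medians ran from -0.16 in WT replicate 1 to 0.22 in WT replicate 3, and both genotypes (WT blue, *Scnn1b*-Tg red) had libraries above and below 0.

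The regulators and effectors of Rab proteins were read from the same fit. Of 137 listed genes 128 had regions, 1056 in all, and 0 passed. At an unadjusted *P* value under 0.05 there were 31 (2.94%, against a background of 2.01%), of which 26 were higher and 5 lower in *Scnn1b*-Tg AMs. Over all regions at that threshold 1346 were higher and 467 lower. Effectors held 16 of the 31 (4.42% of 362 regions), GTPase-activating proteins 10 (2.60% of 384), exchange factors 5 (1.75% of 286), and the escort, prenylation and GDP dissociation genes 0 (of 26). Differences between the lists were not tested.

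The effector with the smallest *P* values was *Myo5a*, which encodes myosin Va, the actin motor that Rab27a engages through melanophilin in melanocytes. A *Myo5a* intron region 8.65 kb from the start had 42.5, 36.8 and 58.2 normalized reads in WT against 125, 95.2, 157 and 74.9 in *Scnn1b*-Tg libraries (log2 fold change 1.26, SE 0.28, unadjusted *P* value 0.00084). A second, at 5.45 kb, had 199, 164 and 140 in WT against 286, 313, 283 and 251 in *Scnn1b*-Tg libraries (0.76, SE 0.18, unadjusted *P* value 0.0013). Neither overlapped between genotypes. With 1 surrogate variable the second passed (adj. *P* value 0.0397), as did a region 13.7 kb upstream of *Mlph*, which encodes melanophilin (adj. *P* value 0.0400). The *Mlph* region was named after its values were seen. It had 153, 179 and 259 in WT against 246, 342, 361 and 357 in *Scnn1b*-Tg libraries, with *Scnn1b*-Tg replicate 1 below WT replicate 3. The *Rab27a* start, by contrast, gave 745, 923 and 1039 in WT against 757, 934, 924 and 1022 in *Scnn1b*-Tg libraries.

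For the other lists, the 2 regions of smallest *P* value in each did not pass. Over the 1056 regulator and effector regions, genotypes did not overlap in 35 that were higher and 9 that were lower in *Scnn1b*-Tg AMs. Over all 90376 regions these counts were 1739 (1.92%) and 1184 (1.31%). The GTPase-activating protein genes *Sgsm2* and *Tbc1d1* gave log2 fold changes of 1.35 and 1.38. *Tbc1d1*, which encodes a GTPase-activating protein of GLUT4-vesicle Rabs, had 8.50 to 9.49 normalized reads in WT against 17.0 to 31.6 in *Scnn1b*-Tg libraries. The exchange factor genes *Dennd1b*, for Rab35, and *Rab3gap2*, a subunit of the Rab18 exchange factor, gave 0.79 and 0.58, and at both every *Scnn1b*-Tg library was above every WT library. The GDP dissociation inhibitor gene *Gdi2* gave -1.13 at a region 2.06 kb from the start with 1.58 to 24.5 normalized reads per library. The lowest value stood for 1 read, the floor of the library, in *Scnn1b*-Tg replicate 3, and the highest was in *Scnn1b*-Tg replicate 2. *Rabif*, which encodes a Rab chaperone, gave -0.19, and genotypes overlapped at both.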

How the data were processed

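Per the study's methods, the authors aligned ATACseq reads to mm10 with the ENCODE pipeline, built consensus regions present in several samples with DiffBind and annotated them with ChIPseeker. The deposited signal columns are reads per region that the authors scaled by 1 factor per library. The smallest value of each library was taken as 1 read. All values (100%) were whole multiples of it, to within 1e-06 of the number of reads. The log2 columns and the p-value and FDR columns deposited by the authors hold their own comparison and were not used.

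Genotypes were compared with limma 3.58.1 (R 4.3.3, trended and robust variances, genotype as the only term) on log2(signal + 1), without a filter on low values, and p-values were adjusted by Benjamini-Hochberg over all 90376 regions or, for gene sums, 17797 symbols. Fold changes on this scale understate changes of low regions. Intervals are 95%. The labels give separate samples per genotype without naming the animals, so p-values measure the spread between these samples. The labels' batches 1 to 4 could not be tied to columns, so no batch term was fitted.

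The Rab genes, roles, pathway lists, motifs and markers were chosen with earlier results of these data known. Named regions were the 15 of smallest p (at most 2 per gene), start regions of listed phagosome and secretion genes, the 3 highest and 3 lowest fold changes with a mean of at least 20, the 5 genes with most regions and the 5 regions of highest level per kb, genes without a start region, the 2 of smallest p per pathway list and the 5 gene sums of smallest p. Alternatives were pseudocounts of 0.5 and 5, a minimum mean of 20, quantile scaling, limma without trend, edgeR 4.0.16 and DESeq2 1.42.0 on the recovered reads, 1 surrogate variable (sva 3.50.0), and libraries left out. The script that fitted limma was tested on simulated data. Sequence was read from RefSeq's GRCm38.p6, with promoters matched for 46 of 56 Rab genes. Transcripts of 256 of 257 Rab regions were in GENCODE M21, with the same coordinates.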

Additional observations from a re-analysis of the deposited data

Results flagged for a closer look

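In the 4 *Scnn1b*-Tg libraries, the start region of *Rab9*, which encodes a Rab of traffic from late endosomes to the Golgi, had 1126 normalized reads in replicate 4 and 897 to 932 in the other 3. The gap was 0.846 of the range, above the limit of Dixon's test for 4 values. It was 1 of 55 sets of values so examined, and chance flags about 1 in 20. *Scnn1b*-Tg replicate 4 was also above the mean of the 7 libraries at 81.4% of Rab starts and 74.3% of all start regions. Among WT libraries, replicate 3 was highest at the *Rab9* start, with 1087 normalized reads against 874 and 926. The part of this library pattern in the flag was not tested.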

How the results depend on the processing

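No paired analysis was possible because the table's columns carry their own numbers, which no label or column name ties to the sample numbers 13, 14, 15 and 19 of the labels, so the planned replicate block was not run. The labels give the numbers 13, 14 and 19 (batches 1, 2 and 4) to 1 sample of each genotype, and 15 (batch 3) to a *Scnn1b*-Tg sample only. By level alone, the *Scnn1b*-Tg library most like WT replicates 1, 2 and 3 was replicate 1, 2 and 4 (Pearson *r* across all regions 0.981, 0.980 and 0.984, a description), and no fit had this likeness as a term. The surrogate variable had values of 0.397, 0.148 and -0.563 in WT replicates 1 to 3. In *Scnn1b*-Tg replicates 1 to 4 it had 0.466, 0.0924, -0.0149 and -0.527. With 1 surrogate variable, 1 Rab region passed in place of 0 (*Rab28* region 3, log2 fold change -1.21), and 2 pathway regions passed in place of 0. In that fit 15 Rab regions had an unadjusted *P* value under 0.05 in place of 8, and 4466 of all regions in place of 1813. The cause was not tested. The count of Rab regions at that threshold was 3 to 11 when 1 library was left out. It was 3 without WT replicate 2, and 13 without WT replicate 3 and *Scnn1b*-Tg replicate 4. Leaving out 1 library gave 0 Rab regions and 0 Rab gene sums passing each time, 45.1% to 53.3% of Rab regions higher, and 17 to 40 Rab gene sums higher. Over all regions 1 passed in the limma fit reported, 57 by the edgeR likelihood-ratio test, 47 by DESeq2, 72 with a surrogate variable and 0 by the edgeR quasi-likelihood test. Over all symbols 0 gene sums passed, against 16 by DESeq2, 10 by the likelihood-ratio test and 21 with a surrogate variable. The other 82 values of these counts and shares stayed within 1.5 times the reported value. Of 47 named log2 fold changes 27 kept their sign in all alternatives and 20 did not, and of these 20 none passed in any fit. Leaving out 1 library gave, for these 20, *Rab10* region 6 -0.19 to 0.17, *Rab11a* region 2 -0.21 to 0.056, *Rab14* region 4 -0.20 to 0.027, *Rab1a* region 6 -0.10 to 0.12, *Rab22a* region 1 -0.078 to 0.17, *Rab27a* region 1 -0.12 to 0.12, *Rab31* region 13 -0.31 to 0.0030, *Rab32* region 3 -0.10 to 0.087, *Rab34* region 1 -0.26 to 0.16 and *Rab38* region 1 -0.14 to 0.32. The same gave *Rab3d* region 5 -0.22 to 0.029, *Rab40c* region 4 -0.045 to 0.10, *Rab5a* region 1 -0.20 to 0.10, *Rab5b* region 1 -0.055 to 0.026, *Rab5c* region 5 -0.068 to 0.12, *Rab6a* region 1 -0.12 to 0.13, *Rab8a* region 2 -0.12 to 0.15, *Rab8b* region 17 -0.032 to 0.068, *Rab8b* region 4 -0.14 to 0.13 and *Rab9* region 1 -0.065 to 0.10. Without both libraries that stood apart, *Rab5a* region 1 was at 0.027, *Rab5b* region 1 at 0.023, *Rab6a* region 1 at 0.033, *Rab10* region 6 at 0.063 and *Rab1a* region 6 at 0.055. Quantile scaling put *Rab10* region 6 at 0.0090, *Rab1a* region 6 at 0.0099 and *Rab8b* region 4 at 0.0096, and DESeq2 put *Rab8a* region 2 at -0.00016. With 3 and 4 libraries, the median standard error of a Rab region was 0.23 log2 units.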
